A study of Mus musculus with 6 samples.

Results

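The accessible genome of unconfined long-term haematopoietic stem cells (LT-HSCs) is described here, from the 3 unconfined libraries among the 6 of the study and all 42632 peaks of its count table. The assay was bulk ATAC-seq. Its transposase cuts and tags open DNA, so that the counts in a peak rise with how open that stretch is; in bulk, openness in fewer cells and less openness per cell cannot be told apart. Bone marrow was taken from C57BL/6 mice at 10 to 16 weeks of age, and the cells were sorted as lineage-negative, Sca1+, cKit+, CD34- and Flt3- cells. They were kept in suspension for 16 h at 3% oxygen before the assay, so the landscape is that of incubated cells. The labels carry experimental batch numbers 1, 2 and 3, 1 for each unconfined library, so batch and library cannot be told apart. They call the libraries biological replicates but do not say whether each came from separate animals, and the spread given below is the spread between these libraries. The study set these cells beside cells squeezed under a low ceiling, which are not analysed here.

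LT-HSCs are the rare, mostly resting cells at the top of the blood hierarchy that can rebuild all blood lineages. Their identity rests on a group of transcription factors that bind together at regulatory elements, among them GATA2, RUNX1, TAL1, LMO2, LYL1, ERG and FLI1. Promoters with many CpG dinucleotides are open in most cell types, whereas cell type identity is written mainly in enhancers that lie away from gene starts.

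Levels are counts in a peak scaled to the same total over all peaks in each library (CPM), averaged over the 3 libraries with equal weight. All peaks are 700 bp wide, so CPM can be compared between peaks without a correction for length. Total counts in peaks were 304898, 1229478 and 983863 in replicates 1, 2 and 3. A single count was thus worth 3.28 CPM in replicate 1 but 0.813 and 1.02 CPM in the others, and the median peak held 5, 22 and 15 counts. Coordinates are on GRCm38.p6 (mm10). A peak is called a gene-end peak when the nearest end (start or 3′ end) of any protein-coding RefSeq gene is at most 1 kb from its midpoint, and a distal peak otherwise. A distal peak counts as linked to the gene whose end is closest, up to 50 kb away, which does not show that it regulates that gene. A peak is called strong when it held at least 3 times the median peak's count in each of the 3 libraries, that is at least 15, 66 and 45 counts.

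The promoters below show the range of sequence found under these peaks, and were picked after their values were seen. Osbp, Kmt5c and G3bp1 lie under peaks among the 20 strongest, Lyl1, Runx1, Gata2 and Erg belong to stem cell transcription factors, and Pf4 and Mpo mark the megakaryocyte and granulocyte lineages. Each run is the 200 bases before a transcription start that RefSeq lists, read 5′ to 3′ on the gene's strand, and each lies inside the peak described. Capitals mark every match, on either strand, to the 12 short motifs searched.
Osbp: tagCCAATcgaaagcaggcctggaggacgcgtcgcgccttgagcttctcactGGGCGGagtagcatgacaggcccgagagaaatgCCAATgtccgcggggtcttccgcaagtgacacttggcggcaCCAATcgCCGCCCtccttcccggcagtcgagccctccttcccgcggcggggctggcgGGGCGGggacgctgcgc
Kmt5c: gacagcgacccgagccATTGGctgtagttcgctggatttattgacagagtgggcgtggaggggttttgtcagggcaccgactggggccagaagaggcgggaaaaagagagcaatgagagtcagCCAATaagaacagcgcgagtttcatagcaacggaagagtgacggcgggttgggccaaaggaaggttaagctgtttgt
G3bp1: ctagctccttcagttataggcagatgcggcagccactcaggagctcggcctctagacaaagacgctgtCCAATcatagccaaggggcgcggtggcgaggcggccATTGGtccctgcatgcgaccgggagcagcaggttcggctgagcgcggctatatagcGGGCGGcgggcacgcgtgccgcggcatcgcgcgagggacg
Lyl1: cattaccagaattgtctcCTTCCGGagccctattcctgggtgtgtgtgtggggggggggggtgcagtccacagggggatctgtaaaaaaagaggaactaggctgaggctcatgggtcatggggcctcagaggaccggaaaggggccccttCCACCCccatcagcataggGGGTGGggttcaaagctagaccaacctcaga
Runx1: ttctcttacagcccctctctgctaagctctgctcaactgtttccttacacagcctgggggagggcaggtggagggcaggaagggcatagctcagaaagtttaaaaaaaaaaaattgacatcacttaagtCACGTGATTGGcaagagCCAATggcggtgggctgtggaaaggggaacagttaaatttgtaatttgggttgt
Gata2: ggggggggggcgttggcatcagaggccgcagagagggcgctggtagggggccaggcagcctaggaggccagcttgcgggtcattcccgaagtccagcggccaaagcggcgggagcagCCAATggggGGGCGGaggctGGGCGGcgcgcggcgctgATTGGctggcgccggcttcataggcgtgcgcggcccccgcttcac
Erg: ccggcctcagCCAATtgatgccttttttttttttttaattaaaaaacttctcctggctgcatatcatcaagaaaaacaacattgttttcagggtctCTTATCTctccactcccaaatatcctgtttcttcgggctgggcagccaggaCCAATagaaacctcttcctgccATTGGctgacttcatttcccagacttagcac
Pf4: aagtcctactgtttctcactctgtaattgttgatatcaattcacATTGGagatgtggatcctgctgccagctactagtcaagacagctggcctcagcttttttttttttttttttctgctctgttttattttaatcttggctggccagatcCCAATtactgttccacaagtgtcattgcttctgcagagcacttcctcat
Mpo: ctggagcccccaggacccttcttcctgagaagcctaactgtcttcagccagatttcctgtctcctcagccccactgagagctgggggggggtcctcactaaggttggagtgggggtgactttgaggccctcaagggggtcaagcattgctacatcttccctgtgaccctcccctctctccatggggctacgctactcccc
The Osbp stretch is chr19:11965644-11965843 (plus strand), that of Kmt5c chr7:4739927-4740126 (plus) and that of G3bp1 chr11:55469552-55469751 (plus). The stem cell factors follow at chr8:84701257-84701456 for Lyl1 (plus), chr16:92826075-92826274 for Runx1 (minus), chr6:88198464-88198663 for Gata2 (plus) and chr16:95459349-95459548 for Erg (minus). Those of Pf4 and Mpo are chr5:90772235-90772434 and chr11:87793584-87793783, both on the plus strand. The CCAAT box (letters CCAAT) occurs 3 times in the Osbp stretch and 2 times each in those of Kmt5c, G3bp1, Runx1, Gata2 and Pf4. The Erg stretch holds 3 and a single match to the motif of GATA factors, spelled AGATAAG. The Lyl1 stretch holds no CCAAT box but an ETS core (CCGGAAG) and 2 matches to the CACCC box, searched with the letters CCACCC, and the Mpo stretch holds none of the 12 motifs. The peaks over these starts averaged 251.5, 253 and 247 CPM at Osbp, Kmt5c and G3bp1. Those at Lyl1, Runx1, Erg and Gata2 averaged 158, 52.5, 46.3 and 27.1 CPM, against 44.5 at Pf4 and 13.0 at Mpo.

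The 20 strongest sites of these cells all lay at gene ends. None belonged to a gene of the stem cell lists, but these hold only 34 and 28 of 21631 protein-coding genes, so little is read from that. Strong peaks numbered 2270, or 5.32% of all peaks, and 17 of the 20 highest lay at a listed start. Gene-end peaks make up 26.4% of all peaks but 88 of the top 100 and 752 of the top 1000. The highest of all lay at chr15:102405562-102406261 (374, 285 and 381 CPM, mean 347 ± 53.3, SD, n = 3). Its midpoint was 404 bp from the listed start of Sp1, a zinc finger factor that binds GC boxes. Next came Khsrp, an RNA-binding protein of mRNA decay, with 380.5, 292 and 357 CPM (343 ± 45.8), and Cic, a transcriptional repressor downstream of receptor kinases, with 266, 274 and 334 CPM (291 ± 37.5). In all 3 peaks replicate 1 or 2 was lowest and the libraries lay within 1.5 times of each other.

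Other members of the top 20 included signalling and trafficking genes such as the small GTPase genes Rras (256 ± 54.4 CPM), Rab40c (259.5 ± 26.0) and Rab5b (231 ± 38.0, a peak shared with the end of Pmel). The top 20 also included the histone H4 methyltransferase gene Kmt5c (253 ± 36.7), the arginine methyltransferase gene Prmt1 (231 ± 50.4), the oxysterol-binding protein gene Osbp (251.5 ± 54.5) and the stress granule gene G3bp1 (247 ± 65.2). Zbtb20, a zinc finger repressor, had a peak of 289.6 ± 59.2 CPM at an end of its gene that is no listed start but lies 92 bp from the end of a long noncoding RNA gene. The remaining members were Evi5l, Ubxn6 with Hdgfl2, Mtmr4, Ap2a1 with Tsks, Ppm1b, Izumo4 with Mob3a, Srgap2, Cdca2 with Kctd9, and Lrch4, between 231 and 259 CPM. Replicate 2 was the lowest library at 19 of the 20. The counts were spread widely rather than held by a few sites: the top 1% of peaks (426, ranked on the other 2 libraries) held 6.51%, 5.15% and 6.65% of counts in replicates 1, 2 and 3, and the top 10% held 32.2%, 26.9% and 33.4%.

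Openness was highest next to gene ends and went down with distance, most steeply within the first kilobase. Peaks within 250 bp of an end had a median of 31.1 CPM, against 22.6 CPM at 250 to 500 bp and 17.3 CPM at 500 to 1000 bp. From 5 to 20 kb the median was 14.3 CPM and beyond 100 kb it was 13.1 CPM. The share of strong peaks was 16.5% in the nearest bin, 4.82% at 1 to 2 kb, 2.21% at 5 to 20 kb and 1.61% in the farthest. The plot of peak level by distance shows the same shape in each library, with replicate 2 the highest of the 3 in every bin beyond 250 bp.

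**Figure D1:**
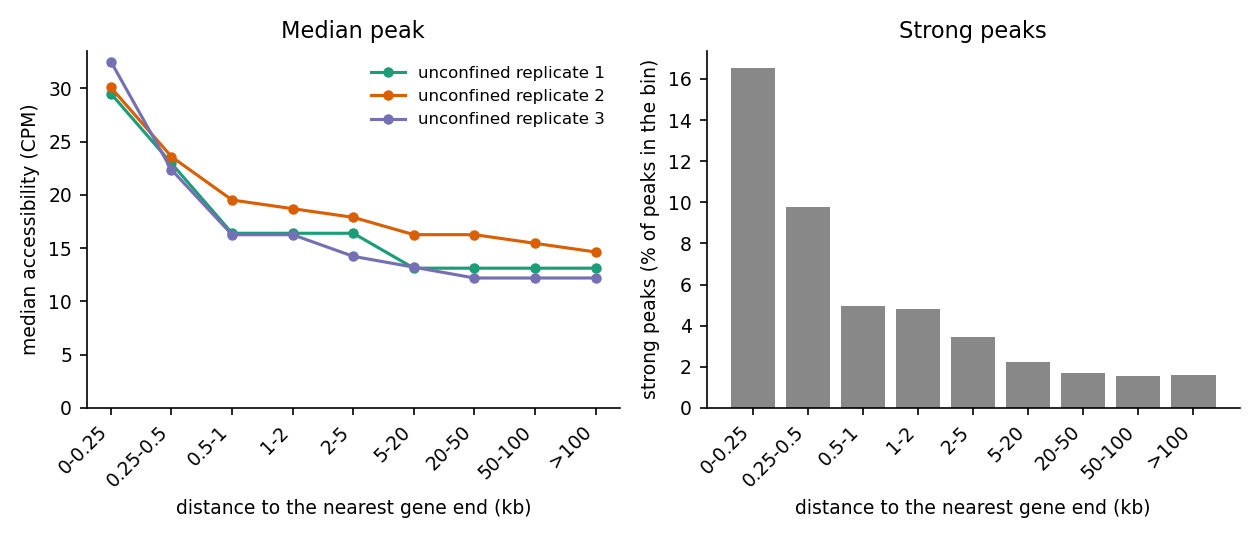
Left, the median CPM of peaks in 9 bins of distance from the peak's midpoint to the nearest protein-coding gene end (kb), 1 line per unconfined library. Right, the percentage of peaks in each bin that were strong in all 3 libraries; it goes from 16.5% within 0.25 kb to 1.61% beyond 100 kb, and each bin holds at least 1596 peaks.

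The rise at gene ends belonged to starts. With the strand and start given in the RefSeq promoter table, 8111 gene-end peaks lay at a listed start and 672 at a 3′ end only. Start peaks had medians of 29.5, 29.3 and 31.5 CPM in replicates 1, 2 and 3, and 16.3% of them were strong. Peaks at 3′ ends had medians of 14.8, 17.1 and 13.2 CPM, and 2.38% were strong. On the log2(CPM + 1) scale the mean start peak exceeded the mean 3′ end peak by 0.98, 0.76 and 1.05 (0.93 ± 0.15, SD, n = 3). The mean 3′ end peak stood 0.07 ± 0.02 above distal peaks away from listed starts. Both differences had one sign in all 3 libraries (exact sign-flip permutation test, two-sided p = 0.25 for each, the smallest that 3 libraries allow).

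Starts inside genes, from which shorter transcripts begin, behaved alike. The 1534 distal peaks at such internal starts had medians of 23.0, 24.4 and 24.4 CPM, and their mean log2 level exceeded that of other distal peaks by 0.69 ± 0.12 (0.75, 0.56 and 0.77 in replicates 1, 2 and 3). Among distal peaks off listed starts it mattered little whether a peak lay inside or outside a gene: medians over the 3-library means were 14.1 CPM for 15723 peaks inside genes and 13.8 CPM for 14102 outside. Listed starts were at hand for 17274 of 21631 protein-coding genes (79.9%) and for none on chromosome 18, so some peaks counted as off starts lie at starts missing from the table.

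The highest distal site ranked 25 among all peaks. Of the 12 highest distal peaks, 7 lay at internal listed starts, led by the histone acetyltransferase gene Kat6b (223 CPM) and the corepressor gene Sin3a (219.9 CPM). The highest distal peak off any listed start lay 16152 bp from Noxa1 at chr2:25111008-25111707 and reached 239, 152 and 176 CPM (189 ± 45.2). A peak 2087 bp from Mknk2, a kinase of the translation factor eIF4E, reached 216, 133 and 179.9 CPM (177 ± 41.6). Peaks inside Agpat3 (173 ± 62.0) and inside Arid1b, a chromatin remodelling subunit gene (159 ± 30.9), followed. A peak near Wdr81 (152 ± 15.1) lay 124 bp from the end of a long noncoding RNA gene. In each of these replicate 2 was the lowest library, and each reached at least 116 CPM in every library.

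Starts that were open, and starts that were strongly open, differed in sequence in separate ways. Of 21045 listed starts (from 250 bases before to 50 after the start), 1945 had a strong peak within 1 kb, 9547 a weaker peak and 9553 none. These groups were formed on the same counts, so the shares below describe them and are no test. A peak went with CpG content: 84.6% of CpG-rich promoters (observed over expected CpG above 0.6) had one, against 26.8% of CpG-poor ones. The GC box (GGGCGG) was in 74.3% of promoters with a strong peak, 64.9% with a weaker one and 22.8% with none, against 46.7% of all promoters. The ETS core was in 20.7%, 18.1% and 3.44%, against 11.7% of all. The TATA box (TATAAA) ran the other way, in 4.63%, 6.36% and 20.6%, against 12.7% of all.

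The CCAAT box, which is bound by the NF-Y complex, did not follow CpG content and instead marked the strongest promoters. It was in 59.4% of promoters with a strong peak but in 33.8% with a weaker peak, 38.9% with none and 38.5% of all. Within CpG-rich promoters alone the shares were 59.9%, 32.2% and 30.4%. Among promoters with a peak, the median level went up with the number of CCAAT boxes in every library. It was 26.2, 26.8 and 28.5 CPM in replicates 1, 2 and 3 with no match, 32.8, 31.3 and 34.6 CPM with 1, 45.9, 41.5 and 48.8 CPM with 2, and 68.9, 61.8 and 77.2 CPM with 3 or more. The share with a strong peak was 11.1%, 18.2%, 29.8% and 55.5% in the same order. For the GC box it went only from 13.0% without a match to 19.98% with 3 or more. The matches lay most often 100 to 51 bases before the start, where 30.7% of promoters with a strong peak held one, against 12.7% with a weaker peak and 12.6% with none. Of the 17 top 20 peaks at a listed start, 16 had a CCAAT box in the promoter and 14 had at least 2, as the Osbp, Kmt5c and G3bp1 stretches show, while none held an ETS core. Neighbouring starts can share a peak, so these promoters are not independent of each other.

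**Figure D2:**
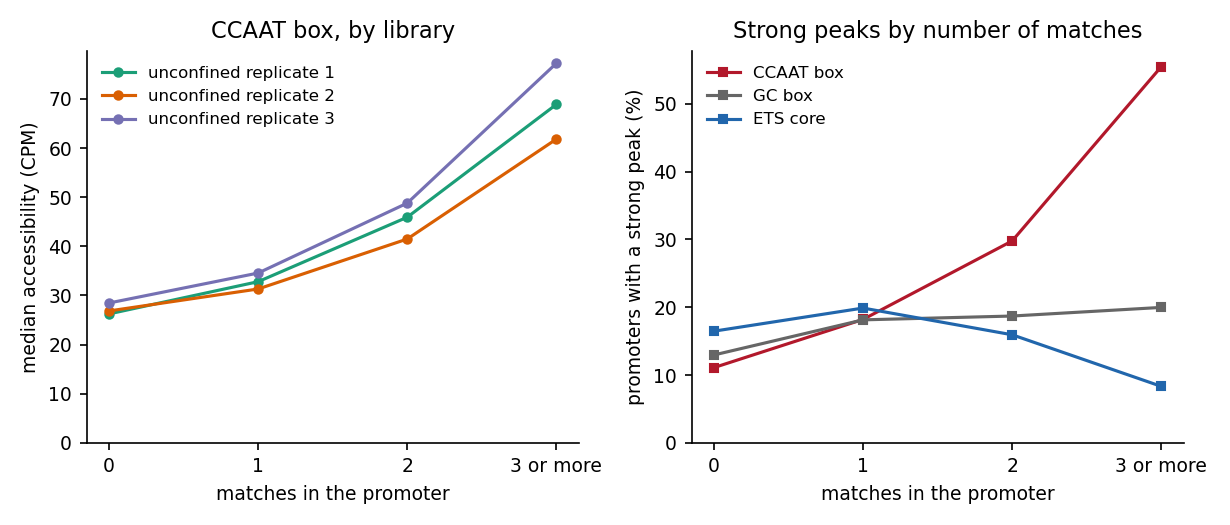
Left, the median CPM of the peak at promoters holding 0, 1, 2 or 3 or more CCAAT boxes, 1 line per unconfined library; all 3 go up, from 26.2 to 28.5 CPM without a match to 61.8 to 77.2 CPM with 3 or more. Right, the percentage of promoters with a peak whose peak was strong, by number of matches to the CCAAT box, the GC box and the ETS core; the CCAAT line ends at 55.5%, on 620 promoters, and the ETS core line at 8.33%, on 60 promoters.

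For the remaining motifs the share in promoters with a strong peak is set beside that in all promoters. CRE (TGACGT) was in 15.3% of promoters with a strong peak against 8.58% of all, and NRF1 (TGCGCA) in 16.8% against 9.74%. YY1 (AAGATGG) was in 9.10% against 6.28%, the CACCC box in 35.6% against 33.8% and the E-box (CACGTG) in 9.67% against 7.91%. AP-1 (TGANTCA) was in 3.96% against 7.04%. CRE and YY1 also differed inside the CpG classes. Among CpG-rich promoters CRE was in 16.5% with a strong peak, 13.1% with a weaker one and 9.57% with none. YY1 was there in 9.26%, 7.28% and 3.28% in the same order. Among CpG-poor promoters the shares were 7.69%, 6.41% and 3.55% for CRE and 8.08%, 4.39% and 5.95% for YY1. With CpG classes pooled, the 2 motifs named for blood factors were rarer at strong promoters than among all: RUNX (TGTGGTT) in 3.39% against 4.74% and GATA in 0.977% against 2.63%. Within CpG-rich promoters RUNX was in 2.85% with a strong peak, 2.64% with a weaker one and 1.93% with none. In CpG-poor ones it was in 6.92%, 6.08% and 6.97%, so its pooled deficit was not seen within the classes. GATA was lowest with a strong peak in both, at 0.772%, 1.13% and 1.61% (CpG-rich) and 2.31%, 3.34% and 4.28% (CpG-poor). The groups with a strong peak hold 1685 CpG-rich and 260 CpG-poor promoters, so their GATA shares rest on few matches. A match says only that the letters are in this window.

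The labelled cell type was checked on gene lists. Of all protein-coding genes 53.7% had a gene-end peak and 8.83% a strong one, and the median gene with a peak had 30.6 CPM at its highest gene-end peak. Among stem cell transcription factors 26 of 34 had a gene-end peak and 2 a strong one, and among stem cell surface and niche genes 24 of 28 and 2. The medians of genes with a peak were 27.7 and 25.0 CPM, just under that of all genes. Among lineage genes the counts were 11 of 15 for megakaryocytes, 10 of 19 for B cells, 5 of 22 for T and NK cells, 9 of 23 for granulocytes and monocytes and 8 of 21 for erythroid cells. The medians of the last 4 lists were 19.1, 21.6, 11.5 and 10.1 CPM, and none of their genes had a strong gene-end peak. Markers of other tissues gave 5 of 16 for stromal and endothelial genes and 7 of 24 for neuronal, liver and muscle genes, with medians of 16.1 and 16.9 CPM.

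Ribosomal protein and olfactory receptor genes serve as reference lists. Of 83 cytosolic ribosomal protein genes, needed in every cell, 75 had a gene-end peak and 25 a strong one. Of 1110 olfactory receptor genes, silent outside the nose, 10 had a peak and 0 a strong one. The median stem cell transcription factor exceeded the median gene of the 5 lineage lists (megakaryocyte genes included) by 0.73, 0.27 and 0.95 on the log2(CPM + 1) scale in replicates 1, 2 and 3 (0.65 ± 0.35; exact sign-flip permutation test, two-sided p = 0.25). Its difference from the median constitutive gene was -0.85, -0.88 and -0.66. Surface and niche genes exceeded the lineage genes by 0.60 ± 0.11. Only genes with a peak enter these medians.

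**Figure D3:**
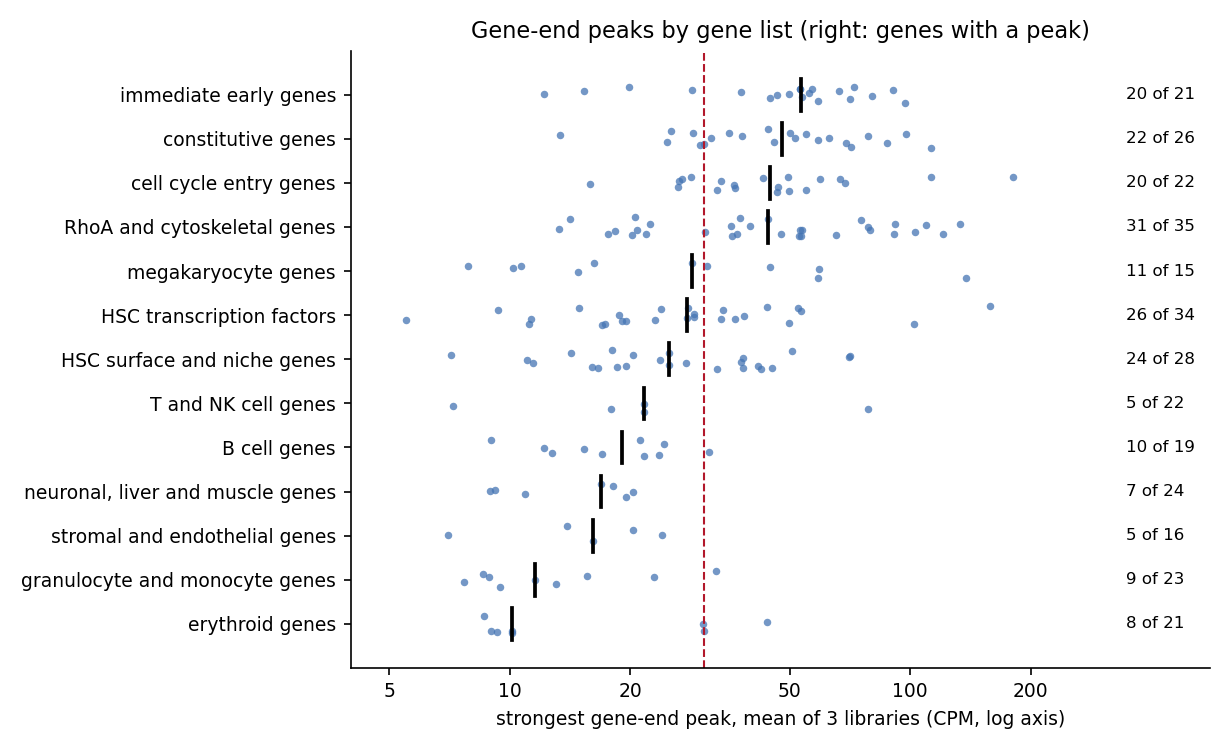
Each point is the highest gene-end peak of 1 gene (mean CPM of the 3 unconfined libraries, log axis), with the black bar at the list's median and the dashed line at the median of all protein-coding genes with a peak, 30.6 CPM. Numbers at the right count the genes with a gene-end peak; immediate early genes (20 of 21) have the highest median, 53.3 CPM, and erythroid genes (8 of 21) the lowest, 10.1 CPM.

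The megakaryocyte list had the highest median of the 5 lineage lists over the 3-library means. It had gene-end peaks at 11 of 15 genes, and its median of 28.5 CPM exceeded that of the other 4 lineage lists by 0.46, 0.52 and 1.40 on the log2 scale (0.79 ± 0.53), although in replicate 1 its median of 23.0 CPM was below the 26.2 CPM of the T and NK list. Nfe2, a transcription factor of platelet formation, was its highest and only strong gene-end peak with 144, 112 and 158 CPM (138 ± 23.3). The integrin gene Itga2b (CD41) had 59.0, 49.6 and 69.1 CPM, the von Willebrand factor receptor gene Gp1ba 65.6, 50.4 and 61.0 CPM, and the platelet chemokine gene Pf4 49.2, 40.7 and 43.7 CPM. All 3 were above the median gene in every library. With Nfe2 these are the 4 highest gene-end peaks of the list. The list's median was just under the 30.6 CPM of all genes with a peak, and its lowest gene-end peak had 7.87 CPM. Selp, the adhesion molecule of platelet granules, had 10.2 CPM at its start but 75.4, 68.3 and 94.5 CPM at a strong peak inside the gene, 14254 bp from its end.

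Base composition differed between the lists, and stem cell genes with CpG-poor promoters were also mostly open. Of stem cell genes with a listed start (47 in both lists), 51.1% had a CpG-rich promoter, against 12.5% of the 80 lineage genes with one. Among CpG-poor promoters alone, 19 of 23 stem cell genes had a peak (82.6%), against 26 of 70 lineage genes (37.1%) and 27.5% of all genes with CpG-poor promoters. All 13 megakaryocyte genes with a listed start were CpG-poor, and 10 had a peak. The Runx1, Erg, Lyl1 and Pf4 stretches printed above are of this CpG-poor kind.

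Among genes of the mature lineages levels ranged widely. Mpo, the myeloperoxidase of granules, had 4, 17 and 12 counts (13.1, 13.8 and 12.2 CPM) at its start. The erythroid factor gene Gata1 had a single linked peak of 16.0 CPM, and the haem synthesis gene Alas2 and the T cell receptor subunit gene Cd3e had no linked peak. The highest among the T and NK genes was a peak at the 3′ end of Cd3d with 115, 47.2 and 73.2 CPM (78.4 ± 34.1), 4924 bp from its listed start. Among factors that prime lineages, Cebpa (granulocytes) had 32.7 ± 3.16 CPM, Ebf1 (B cells) 24.2 ± 4.11 and Irf8 (monocytes) 22.9 ± 1.53 at their starts. The B cell factor gene Pax5 had no gene-end peak and 3 linked peaks of at most 30.8 CPM. The T cell factor gene Tcf7 had 6.56, 8.95 and 6.10 CPM at its start, and Gata3 reached 85.3, 51.2 and 61.0 CPM at an internal start. Some distal peaks linked to lineage genes were high. Cebpe, of the granulocyte and monocyte list, had 78.7, 89.5 and 77.2 CPM at a peak 4367 bp from its end. Distal peaks linked to Klrb1c (T and NK list) and Itgam (granulocyte and monocyte list) averaged 62.0 and 60.4 CPM. In replicate 1 the limit of 3 counts is worth 9.84 CPM, against 2.44 and 3.05 CPM in the others, so lineage values near 10 CPM rest on few counts there.

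The sort markers gave a mixed reading. Kit, the stem cell factor receptor used to sort the cells, had 32.8, 42.3 and 39.6 CPM at its start. Ly6a, which encodes Sca1 and was also used in the sort, had no gene-end peak and no linked peak, and Slamf1 (CD150) only 3 distal peaks of at most 21.1 CPM. Cd34 and Flt3, whose proteins the sorted cells lack, had start peaks of 28.9 ± 12.1 and 19.5 ± 3.92 CPM. An open promoter thus occurred with and without the protein named in the sort.

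Distal sites of the stem cell lists were counted next. A strong distal peak off listed starts was linked to 7 of 34 stem cell transcription factors (20.6%) and 6 of 28 surface and niche genes (21.4%), against 2.02% of all protein-coding genes (2.56% when distal peaks at internal starts are counted as well) 5 of 100 lineage genes (2 of 15 megakaryocyte genes) and 9 of 21 immediate early genes (42.9%). The link depends on how far apart genes lie, and these genes also had more linked distal peaks off starts, 3.85 per gene on average against 1.02 for all genes; 46.0% of all genes had any linked distal peak. Runx1, needed for blood stem cells to emerge, had its highest peak 3667 bp inside the gene at chr16:92822057-92822756. That peak held 40, 121 and 137 counts (131, 98.4 and 139 CPM), against 52.5, 48.0 and 56.9 CPM over the start printed above. Gata2, which keeps stem cells in being, had 75.4, 77.3 and 101 CPM at an internal peak at chr6:88202878-88203577 and 32.8, 21.1 and 27.4 CPM at the start printed above. Meis1, a HOX cofactor, had 108, 71.6 and 91.5 CPM at a peak 48857 bp into the gene from its start and 32.8, 23.6 and 45.7 CPM at the start. In all 3 genes every library was higher at the distal peak than any library at the start.

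Among surface and niche genes, Procr, the protein C receptor (EPCR) of the most primitive stem cells, had 82.0, 65.1 and 87.4 CPM at a peak 7860 bp outside the gene and 9.84, 22.8 and 21.3 CPM at its start. Cxcr4, the receptor that holds stem cells in the marrow, had 91.8, 75.6 and 91.5 CPM at 22871 bp from its end and 52.5, 44.7 and 54.9 CPM at its start. Adgrg1 (GPR56) had 213, 93.5 and 121 CPM at a peak 1559 bp from its end and 85.3, 56.1 and 59.0 CPM at its highest internal start. Pdzk1ip1, a gene next to Tal1, had 157, 91.9 and 118 CPM at 2304 bp from its end and 45.9, 39.0 and 50.8 CPM at its start. The von Willebrand factor gene Vwf, a mark of platelet-biased stem cells, had 55.8, 52.9 and 62.0 CPM at a peak inside the gene and 16.4, 15.5 and 16.3 CPM at an end of the gene. In none of these 5 genes did the libraries' ranges overlap, and they lay closest for Adgrg1, with a lowest distal value of 93.5 CPM against a highest start value of 85.3 CPM.

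Counted over both stem cell lists, 44 of 62 genes had peaks of both kinds, and in 25 of them (56.8%) the highest linked distal peak off starts was above the highest peak at a gene end or listed start in each of the 3 libraries. The share of all protein-coding genes was 20.9% (1387 of 6624), and that of lineage genes was 12 of 34 (35.3%), with 5 of 8 granulocyte and monocyte genes (62.5%). The stem cell count was made up of 15 of 20 surface and niche genes (75%) and 10 of 24 transcription factors (41.7%), of which 6 were lower in all 3 libraries; the difference between these lists was not tested. Genes with many distal peaks more often have one that is high. Among genes with at least 4 linked distal peaks the counts were 19 of 27 stem cell genes (70.4%) and 39.7% of all genes. With 2 or 3 such peaks they were 4 of 13 stem cell genes (30.8%) and 21.1% of all genes. This count was chosen after seeing the data, and 15 of the 62 genes have no listed start. With links only up to 10 kb the 25 genes became 12.

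**Figure D4:**
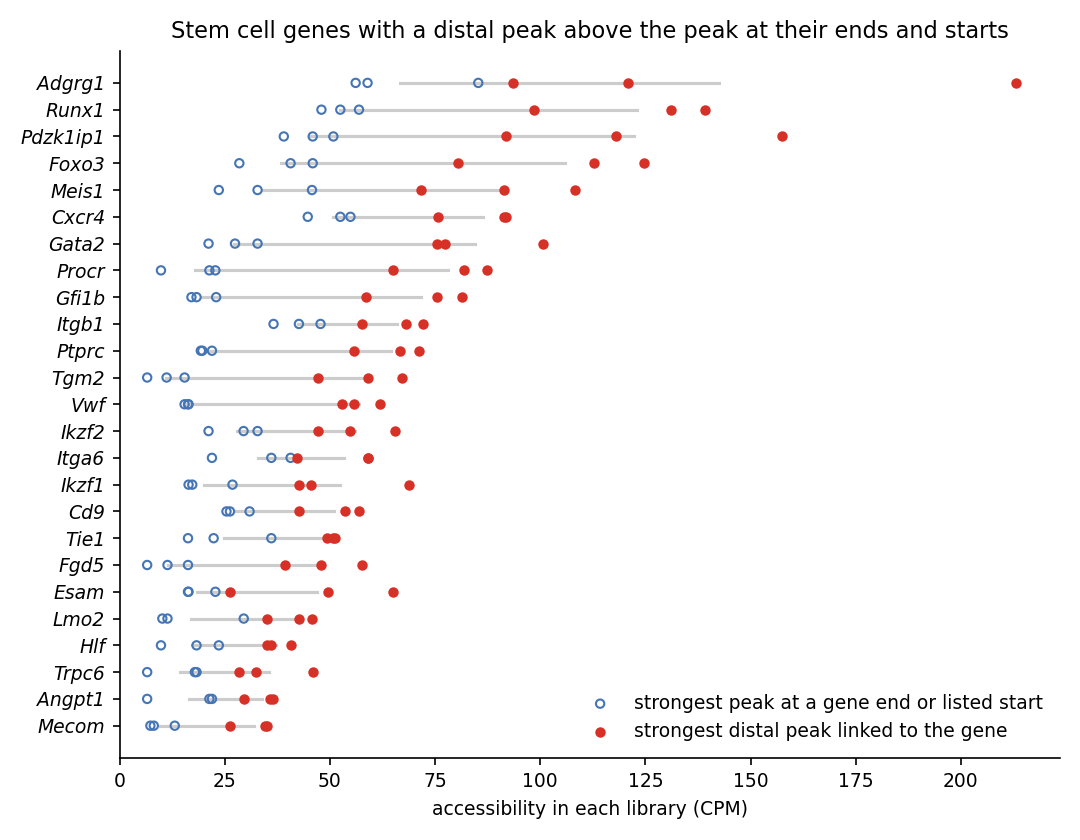
The 25 stem cell genes whose highest distal peak (filled) was above their highest peak at a gene end or listed start (open) in each library; every gene has 3 points of each kind, 1 per unconfined library, on a linear CPM axis, and the grey line joins the means. The genes run from Adgrg1, at 143 against 66.8 CPM, down to Mecom, at 31.9 against 9.52 CPM.

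Not all stem cell factors followed this order. Lyl1, a partner of GATA2 and TAL1, had the highest start peak of the list with 65, 130 and 152 counts (213, 106 and 154 CPM; 158 ± 53.8), and its linked distal peak of 74.6 CPM lay inside the neighbouring gene Nfix. Tal1 had 53.2 ± 12.3 CPM at its start and 48.2 ± 8.66 CPM at its highest linked distal peak, and the ETS factor gene Spi1 (PU.1) 49.8 ± 5.92 and 53.8 ± 4.39 CPM, differences within the spread of the libraries. The order at Tal1 depends on the link by nearest end. That link gives the distal peak of 122 CPM described above to the neighbouring gene Pdzk1ip1. Erg had 59.0, 34.2 and 45.7 CPM at the start printed above, which lies inside the gene model, and at most 16.6 CPM at the 2 distal peaks linked to it; 8 more peaks off starts lie inside this long gene over 50 kb from its ends, the highest at 42.7 and 42.0 CPM, and are not counted as linked. For Fli1, with 13 linked distal peaks, no gene-end peak was found and the highest, 12966 bp outside the gene, had 75.4, 56.9 and 76.2 CPM. Hoxa9 had no gene-end peak and at most 34.5 CPM at 2 linked distal peaks. The lowest gene-end peak in the transcription factor list was that of Ndn at 5.50 CPM.

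Immediate early genes, which switch on within minutes of a signal, had the highest median at gene ends of the lists and the highest share of genes with a strong distal peak. Gene-end peaks were present at 20 of 21 and strong at 8 (38.1%, against 8.83% of all genes), with a median of 53.3 CPM that exceeded the median of all genes by 0.98, 0.63 and 0.75 on the log2 scale. A strong distal peak was linked to 9 of 21 (42.9%). Klf6 had 108, 78.1 and 105 CPM at its start, Dusp2 88.6, 77.3 and 106, and Junb 95.1, 63.4 and 82.3. Fos had 59.0, 55.3 and 52.9 CPM at its start and 141, 84.6 and 119.9 CPM at a peak 18528 bp from its end. Btg2, an antiproliferative gene, had 161, 119 and 165 CPM at a peak 1562 bp outside the gene, above the 82.0, 59.4 and 71.1 CPM of its start. Klf4 had 62.3, 52.9 and 45.7 CPM at its start. Sorting and 16 h of incubation preceded the assay in all 3 libraries, and their part in these levels was not tested.

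Genes of cell cycle entry and of the RhoA pathway, which links the cytoskeleton to the nucleus, were described at both kinds of site. Of 22 cell cycle genes 20 had a gene-end peak (90.9%) and 5 a strong one (22.7%), against 53.7% and 8.83% of all genes. A strong distal peak was linked to 0 of them, near the 2.56% of all genes. Cdkn2d, an inhibitor of CDK4 and CDK6, led with 180.4, 145 and 216.5 CPM (181 ± 35.9), followed by a gene end of the cyclin gene Ccna2 (112.5 ± 21.8). Among RhoA and cytoskeletal genes 31 of 35 had a gene-end peak (88.6%) and 10 a strong one (28.6%). A strong distal peak off listed starts was linked to 1 of them (2.86%), near the 2.02% of all genes. With distal peaks at internal starts counted as well it was 4 (11.4%), against 2.56% of all genes. Myh9, the non-muscle myosin heavy chain, had 141, 92.7 and 167 CPM (133 ± 37.6) and Mrtfa, the actin-sensing cofactor of SRF, 144, 92.7 and 126 CPM (121 ± 26.2). Rhoa had 59.0, 79.7 and 96.6 CPM at a start peak shared with Tcta, and Srf 138, 69.9 and 92.5 CPM at an internal start. The list's median exceeded that of all genes by 0.43 ± 0.08 on the log2 scale, close to the constitutive genes, whose median was 47.9 CPM against 44.1 CPM here.

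Each pair of libraries correlated better across gene-end peaks than across distal peaks. Across gene-end peaks (11273) Pearson's r of log2(CPM + 1) was 0.783, 0.800 and 0.893 for replicates 1 and 2, 1 and 3, and 2 and 3, and across distal peaks (31359) it was 0.570, 0.592 and 0.741. Peaks of a library share its depth and are not independent of each other. Replicates 2 and 3 are the deepest. Over all peaks the same pairs gave 0.676, 0.693 and 0.824. Once every library was thinned to the total of replicate 1 these values became 0.538, 0.593 and 0.563. Across the 32276 peaks with a mean count of at least 10 they were 0.682, 0.710 and 0.822, close to those over all peaks. The coefficient of variation over the libraries was 54.2% in the lowest of 10 equal classes of peaks by mean CPM and 18.3% in the highest, where counting alone gives 47.3% and 16.3%. In the 8 classes between them the measured value was below that from counting, as in the seventh, with 25.5% against 28.4%. The measured value is a median over peaks of a coefficient from 3 libraries, which tends to fall below the true one. It therefore does not show less spread than counting gives. Gene-end peaks made up 9.47% of the lowest class and 63.5% of the highest. Beyond counting noise, edgeR's common dispersion gave a coefficient of variation of 17.8%, which was 12.8% without replicate 2.

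**Figure D5:**
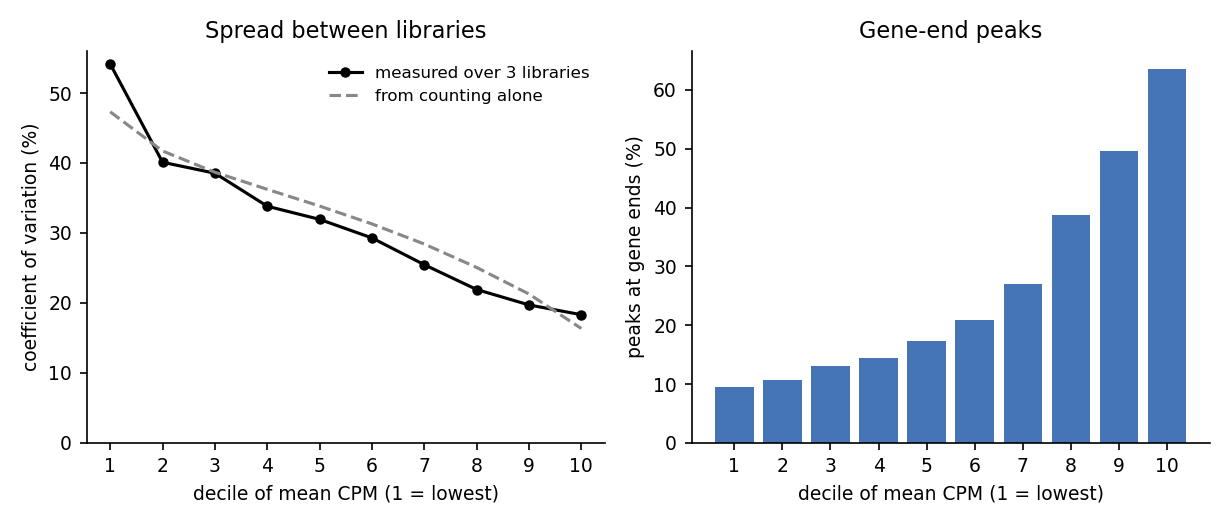
Left, the median coefficient of variation of CPM over the 3 unconfined libraries in each of 10 classes of peaks by mean CPM (solid) and the value from counting alone (dashed). The measured line goes from 54.2% to 18.3%. A median of coefficients from 3 libraries tends to fall low, so the lines are not on one scale. Right, the percentage of gene-end peaks in each class, from 9.47% to 63.5%.

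Disagreement between libraries was measured on peaks with at least 20 counts in each. That minimum is worth 65.6 CPM in replicate 1 but 16.3 and 20.3 CPM in replicates 2 and 3, so only peaks high in replicate 1 could enter, and which library is highest is largely set by it. Of the 2529 such peaks, the median ratio of highest to lowest CPM was 1.45, and it exceeded 2 at 183 (7.24%). The greatest ratio was at a peak inside Flt1, a VEGF receptor gene, with 131, 27.7 and 48.8 CPM on 40, 34 and 48 counts. A peak near Ric8b (134, 28.5 and 36.6 CPM) and one near Borcs6 (72.2, 35.0 and 20.3 CPM) came next. Peaks at D5Ertd579e, Ift88, Kcnq5, Tnfrsf11b, Pnma3 and the predicted genes Gm13288 and Gm13275 on chromosome 4 completed the 10 greatest, with ratios from 2.99 to 3.36. All 10 were highest in replicate 1, where they held 20 to 41 counts, and nothing is read from that given the minimum.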

How the data were processed

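Bulk ATAC-seq was analysed in the 3 unconfined libraries; the 3 confined columns of the same table were not analysed. The authors deposited raw counts per peak and the peak coordinates. Builds and tools named in the submitters' processing notes are mm10, featureCounts, R 4.2.0 and SAMtools 1.14, with no role for any. For the aligner, the peak caller, duplicate removal, the transposase shift and the samples on which peaks were called, the answer is "not given in the sources used here"; peaks called partly on other samples would affect which sites are listed.

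From the counts, CPM over all peaks, their mean and log2(CPM + 1) were computed with Python 3.11.15, pandas 2.3.3, NumPy 2.4.6 and SciPy 1.17.1. Gene ends came from RefSeq genes of GRCm38.p6, without exons, so a peak is placed only as inside or outside a gene. Listed starts and promoter sequences came from the RefSeq promoter table of the same build; classes by listed start, promoter motifs and the comparison of distal with start peaks were added after seeing the data. Differences between classes were taken within each library and tested by exact sign-flip permutation over the 3 libraries. Spread beyond counting noise was estimated with edgeR 4.0.16 in R 4.3.3 with an intercept only and TMM factors, and the estimates were tested on simulated data. No test between groups was made. Floors of 3 counts cover counting error only. Depth is given in the report; a peak of 5 counts in replicate 1 carries a large counting error.

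Members, gene lists and motifs were chosen with earlier results of these data known. Named peaks are the 20 highest, the 12 highest distal and 12 highest gene-end ones, the 10 with the greatest ratio between libraries among peaks of at least 20 counts, up to 4 genes per list by gene-end peak and 2 by distal peak, landmark genes, and the 10 genes with most linked peaks. Other genes named in the text, among them Vwf, Ndn and the distal peaks off listed starts, were chosen after their values were seen. Alternatives were other windows, links, pseudocounts, scalings, count minimums, thinning and leaving out each library. Some genes that this rule names are not reported here.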

Additional observations from a re-analysis of the deposited data

How the results depend on the processing

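No paired analysis was possible because no groups are compared and no result comes from a test between groups. Replicate 1 holds the fewest counts and limits every call that asks for all 3 libraries; low peaks rest on a few counts there. Of 122 values under alternative settings, 98 stayed within the spread between libraries (or within 1.5 times for counts), 24 moved and 0 reversed. The cause of the 24 moves was not tested. All 500 values of the 100 named peaks stayed within 1 SD of their 3 libraries. Leaving out a library or pooling the counts cannot move such a mean by 1 SD, so these settings are no check of named peaks. The same bound holds for the share of counts and the log2 class difference with a library left out.

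The share of counts at gene ends was 37.1% with a 500 bp window, 46.1% with 2 kb, 44.2% for peaks with a mean count of at least 10 and 36.8% for listed starts. The log2 difference of gene-end and distal peaks was 0.67 for peaks with a mean count of at least 10 and 0.69 with a pseudocount of 5 CPM. Mean r was 0.565 after thinning and 0.676 to 0.824 with each library left out. The coefficient of variation was 12.8% to 18.4% with each left out, the lowest without replicate 2. The lineage median was 21.7 CPM for peaks with a mean count of at least 10 and 15.1 to 18.8 CPM with each library left out.

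Strong peaks numbered 5473 at 2 times and 507 at 5 times the median peak, and 2302 to 3692 with each library left out, the highest without replicate 2. With links up to 10 kb a strong distal peak was linked to 3 stem cell transcription factors, 3 surface and niche genes, 2 lineage genes and 336 of all genes. With each library left out these were 6 to 10 surface and niche genes and 562 to 994 of all genes, both highest without replicate 2. The distal peak was above the start in 12 stem cell genes with links up to 10 kb. The CCAAT box difference between strong and weaker promoters was 19.6 points at 2 times and 30.1 at 5 times the median peak, and 23.2 to 25.8 with each library left out.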

Other observations

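Some loci held many peaks, few of them strong. The median gene had 1 peak linked to it, 32.6% had none and the 95th percentile was 6. Irf2, an interferon regulatory factor gene, had the most, 19, none strong and the highest at 46.2 CPM. Usp6nl had 18 and Cxxc5, Zfp608 and Gcnt2 17 each, again none of them strong. Itpkb, a kinase of inositol phosphate signalling, had 16, the highest at 85.7 CPM and 1 strong, and Ksr1, a scaffold of the MAP kinase cascade, had 16 with 0 strong. Pik3r1, Ptk2b and Susd1 had 15 each, with 0, 1 and 1 strong. The genes were from 32.3 kb (Cxxc5) to 133 kb (Ksr1) long, and peak number was not corrected for length.

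The X chromosome held few peaks for its genes, 89.8 per 100 protein-coding genes, against 138 (chromosome 7) to 246 (chromosome 18) on the 19 autosomes. For gene-end peaks the log2 ratio of mean CPM, X over autosomes, was -0.48, -0.43 and -0.53 in replicates 1, 2 and 3. Its mean was -0.48 ± 0.05 (exact sign-flip permutation test, two-sided p = 0.25, the smallest that 3 libraries allow). A ratio of mean CPM weighs high peaks more than a difference of mean log2 levels does. For distal peaks the values were 0.08, -0.02 and 0.03 (0.03 ± 0.05; the same exact test, p = 0.5). The sex of the animals is not stated in the sources used here.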
